A study of Mus musculus with 6 samples.

Results

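The AP-1 family is a group of dimeric transcription factors whose genes were read here in microglia, the resident macrophages of the brain. The 10 genes were taken by symbol from the table of 20129 genes: the Jun genes Jun, Junb and Jund, the Fos genes Fos, Fosb, Fosl1 and Fosl2, the ATF-type gene Atf3, Batf, and the large Maf gene Maf. All 10 had a row in the table, and 9 of them passed the filter for testing; Fosl1 did not.

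Microglia from Il3-/-5xFAD mice, which lack interleukin-3, were compared with microglia from 5xFAD mice. Both groups were C57BL6/J mice aged 5 months, and both carried the 5xFAD transgenes, which are driven by the neuronal Thy1 promoter and make amyloid in the brain. No group without these transgenes was among the libraries. Each group had 3 libraries (Il3-/-5xFAD replicates 1, 2 and 3, and 5xFAD replicates 4, 5 and 6), and each library was a pool of 4 mice, 2 males and 2 females, so the spread below is between pools. Brains were digested with collagenases, DNase and hyaluronidase for 40 min at 37 °C before live CD45+ CD11b+ cells were sorted. That sort keeps other myeloid cells and any lymphocytes with CD11b, not microglia alone.

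AP-1 proteins bind DNA as pairs through a basic region and a leucine zipper. Jun proteins pair with each other, with Fos proteins and with ATF proteins, while Fos proteins need a partner such as Jun. Most of these genes are early response genes: growth factors, cytokines, stress and cell handling switch them on without new protein synthesis, and warm enzymatic dissociation of brain is known to do so in microglia.

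The early response members Fos, Fosb, Jun and Atf3 were high and low in the same libraries, as were Junb and Jund, which are not shown. The bases before the starts of Fos, Fosb, Jun and Atf3 are given. They come from the RefSeq table for GRCm38.p6, another build than the mm9 named for the deposited table, and 8 of the 10 members had an entry; Fosl1 and Maf did not. The 130 bases before each start run 5′ to 3′ on the strand of the gene, at chr12:85473760-85473889 (+ strand) for Fos, chr7:19310046-19310175 (- strand) for Fosb, chr4:95052223-95052352 (- strand) for Jun and chr1:191183334-191183463 (- strand) for Atf3. Capitals mark the letters TGACG or TGACATCA on either strand, and TATAAA on the strand of the gene.
Fos: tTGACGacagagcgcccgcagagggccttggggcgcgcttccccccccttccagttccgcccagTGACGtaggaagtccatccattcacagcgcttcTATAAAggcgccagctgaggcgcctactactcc
Fosb: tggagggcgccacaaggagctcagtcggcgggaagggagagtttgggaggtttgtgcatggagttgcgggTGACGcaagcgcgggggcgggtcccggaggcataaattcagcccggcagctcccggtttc
Jun: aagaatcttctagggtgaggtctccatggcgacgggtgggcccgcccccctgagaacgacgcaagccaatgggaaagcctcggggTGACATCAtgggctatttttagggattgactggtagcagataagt
Atf3: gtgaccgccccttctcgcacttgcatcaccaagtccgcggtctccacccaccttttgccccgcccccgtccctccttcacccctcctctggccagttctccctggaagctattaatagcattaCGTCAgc

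In the 250 bases before the start, the AP-1 site TGACTCA and the cyclic AMP response element TGACGTCA were searched on both strands. Neither was found in any of the 8 members, and they occurred in 4.46% and 1.55% of the 32851 promoters of the table. Chosen after the sequences had been seen, the letters TGACG, which begin TGACGTCA, occurred in 5 of the 8 (Fos, Fosb, Junb, Atf3 and Batf) and in 17.8% of all promoters. In Fos they began 129 and 66 bases before the start and in Fosb 60 bases before it. The variant TGACATCA stood in Jun, at 45 bases before the start, and in 2.93% of all promoters. TATAAA, on the strand of the gene only, stood in Fos and in 7.59% of promoters. Jund and Fosl2 held none of these letters. These are matches of letters, and binding was not measured.

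Levels are given as CPM, reads assigned to the gene for each 1000000 reads counted in that library. Libraries held between 27970850 and 37605490 reads. Il3 had no read in any Il3-/-5xFAD library, against 54, 61 and 29 reads in 5xFAD replicates 4, 5 and 6. Ptprc and Itgam, which encode the sort markers CD45 and CD11b, had log2 differences of -0.06 ± 0.08 and 0.06 ± 0.10 (SE, Il3-/-5xFAD minus 5xFAD). The 10 members together took 2.27%, 2.44% and 1.79% of the reads of Il3-/-5xFAD replicates 1, 2 and 3, against 1.87%, 1.49% and 1.502% in 5xFAD replicates 4, 5 and 6. The share in 5xFAD replicate 4 lay above that in Il3-/-5xFAD replicate 3, so the groups overlapped.

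The genotypes were not separated by any member at the 5% level. Of the 9 tested members none passed (limma with Benjamini-Hochberg adjustment over 11900 genes), a test that called 0.882% of all genes. Higher mean log2 levels in Il3-/-5xFAD were measured for 8 of the 9, against 49.9% of all tested genes, and their median log2 difference was 0.33, against -0.00059 over all tested genes. At an unadjusted p under 0.05, 5 members were higher in Il3-/-5xFAD and none lower, while 6.69% of all tested genes were higher and 9.83% lower by that rule. No member was without overlap between the groups, which held for 21.2% of all tested genes (9.65% with Il3-/-5xFAD higher and 11.5% with it lower).

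The count of members called depended on the tool. On the recovered reads, edgeR's quasi-likelihood test called none of the 9 tested members and 0.529% of genes. DESeq2 called Fos (adjusted p = 0.0179) and Jun (adjusted p = 0.00778), and 4.48% of genes. In edgeR with no filter on low genes, a setting added after the data had been seen, 5 members passed (Fos, Fosb, Jun, Jund and Atf3), beside 4.04% of genes. Without 5xFAD replicate 5 or 6, limma left 1 member at an unadjusted p under 0.05, and without Il3-/-5xFAD replicate 2 it left 2.

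Jun encodes c-Jun, the strongest activator of the Jun proteins. Jun was at 8029, 7585 and 5910.2 CPM in Il3-/-5xFAD replicates 1, 2 and 3 and at 6155, 4721 and 4885 CPM in 5xFAD replicates 4, 5 and 6. Il3-/-5xFAD replicate 3 lay below 5xFAD replicate 4, and the other pairs of libraries had Il3-/-5xFAD higher. The means were 7175 ± 1117 in Il3-/-5xFAD and 5254 ± 785 CPM in 5xFAD (SD, n = 3 each), and on the log2 scale they differed by 0.45 ± 0.16 (SE, as for each log2 difference below; adjusted p = 0.181, limma).

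Junb encodes a Jun protein that can dampen c-Jun and that is induced with it. Its levels were 3419.6, 3615 and 2812 CPM in Il3-/-5xFAD replicates 1, 2 and 3, against 3163, 2479 and 2524 CPM in 5xFAD replicates 4, 5 and 6. Again 5xFAD replicate 4 stood above Il3-/-5xFAD replicate 3. The log2 difference was 0.27 ± 0.13 (limma adjusted p = 0.345).

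Jund encodes the Jun protein that resting cells also carry. It was measured at 1145, 1255 and 1078 CPM in Il3-/-5xFAD libraries and at 1109, 859 and 816 CPM in 5xFAD libraries, in the same order of replicates. The groups met only at 5xFAD replicate 4 and Il3-/-5xFAD replicate 3. Means were 1159 ± 89.7 in Il3-/-5xFAD and 928 ± 158 CPM in 5xFAD (SD, n = 3 each), with a log2 difference of 0.33 ± 0.12 (limma adjusted p = 0.182).

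Fos encodes c-Fos, the classical early response partner of Jun. Il3-/-5xFAD replicates 1, 2 and 3 had 5200.3, 5349 and 4233 CPM of Fos, and 5xFAD replicates 4, 5 and 6 had 4236, 3701 and 3677 CPM. The values of Il3-/-5xFAD replicate 3 and 5xFAD replicate 4 were nearly equal, at 139631 and 118475 reads in libraries of different depth. The means of 4927 ± 606 in Il3-/-5xFAD and 3871 ± 316 CPM in 5xFAD (SD, n = 3 each) gave a log2 difference of 0.34 ± 0.13 (limma adjusted p = 0.214).

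Fosb had the largest difference of the 9 tested members. Its gene gives the full-length FosB protein and, by splicing, the stable short form ΔFosB, and counts per gene do not tell these apart. Fosb was at 1676, 2547 and 1055 CPM in Il3-/-5xFAD replicates 1, 2 and 3, against 1136, 803 and 812 CPM in 5xFAD replicates 4, 5 and 6. Il3-/-5xFAD replicate 2 stood far above all other libraries, and replicate 3 of that group lay within the range of 5xFAD. The means were 1759.6 ± 749.6 in Il3-/-5xFAD and 917 ± 189.8 CPM in 5xFAD (SD, n = 3 each), a log2 difference of 0.87 ± 0.25 (limma adjusted p = 0.104). Without Il3-/-5xFAD replicate 3 it became 1.19 and passed (limma adjusted p = 0.0224), in a setting that called 605 genes, against 105 with every library kept. Without Il3-/-5xFAD replicate 2 the difference was 0.56 (limma adjusted p = 0.242).

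Fosl2 encodes Fra-2, a Fos protein without the strong activation domain of c-Fos. Its levels were 40.7, 37.7 and 36.9 CPM in Il3-/-5xFAD replicates 1, 2 and 3 and 38.3, 36.8 and 37.9 CPM in 5xFAD replicates 4, 5 and 6. All 6 libraries lay close together, and the log2 difference was 0.03 ± 0.10 (limma adjusted p = 0.926). Fosl1, which encodes Fra-1, was almost undetected. No read of it was found in Il3-/-5xFAD replicates 1, 2 and 3, which allows up to 0.101, 0.107 and 0.0909 CPM by counting error alone, while 5xFAD replicates 4, 5 and 6 had 0, 3 and 15 reads. With reads in 2 of 6 libraries and at most 0.399 CPM, it stayed below the filter of 1 CPM in 3 libraries. It was therefore not tested in the main limma fit, and edgeR with no filter gave an adjusted p of 0.408.

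Atf3 encodes a stress-induced factor of the ATF family that pairs with Jun proteins and often acts as a repressor. Libraries of Il3-/-5xFAD replicates 1, 2 and 3 had 2489, 3449.6 and 2165 CPM of Atf3, and those of 5xFAD replicates 4, 5 and 6 had 2327, 1739 and 1713 CPM. As for Fos and Fosb, Il3-/-5xFAD replicate 2 was the highest library and 5xFAD replicate 4 exceeded Il3-/-5xFAD replicate 3. The means of 2701 ± 668 in Il3-/-5xFAD and 1926 ± 348 CPM in 5xFAD (SD, n = 3 each) gave a log2 difference of 0.47 ± 0.17 (limma adjusted p = 0.183).

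Batf encodes a small basic leucine zipper protein that pairs with Jun proteins in lymphocytes and dendritic cells. It had 7.76, 11.7 and 5.91 CPM in Il3-/-5xFAD replicates 1, 2 and 3 and 9.76, 7.01 and 7.98 CPM in 5xFAD replicates 4, 5 and 6, from 195 to 330 reads. Both the highest and the lowest value belonged to Il3-/-5xFAD, and the log2 difference of -0.0023 ± 0.24 (limma adjusted p = 0.998) changed sign with another scaling.

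Maf encodes c-Maf, a large Maf factor that helps to hold mouse macrophages in their differentiated state. Its levels were 665, 519.6 and 569 CPM in Il3-/-5xFAD replicates 1, 2 and 3 and 562, 519.65 and 546 CPM in 5xFAD replicates 4, 5 and 6. Here Il3-/-5xFAD replicate 2, the highest library for Fos, Fosb, Junb, Jund and Atf3, and 5xFAD replicate 5 shared the lowest level. The log2 difference was 0.10 ± 0.10 (limma adjusted p = 0.654).

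**Figure D1:**
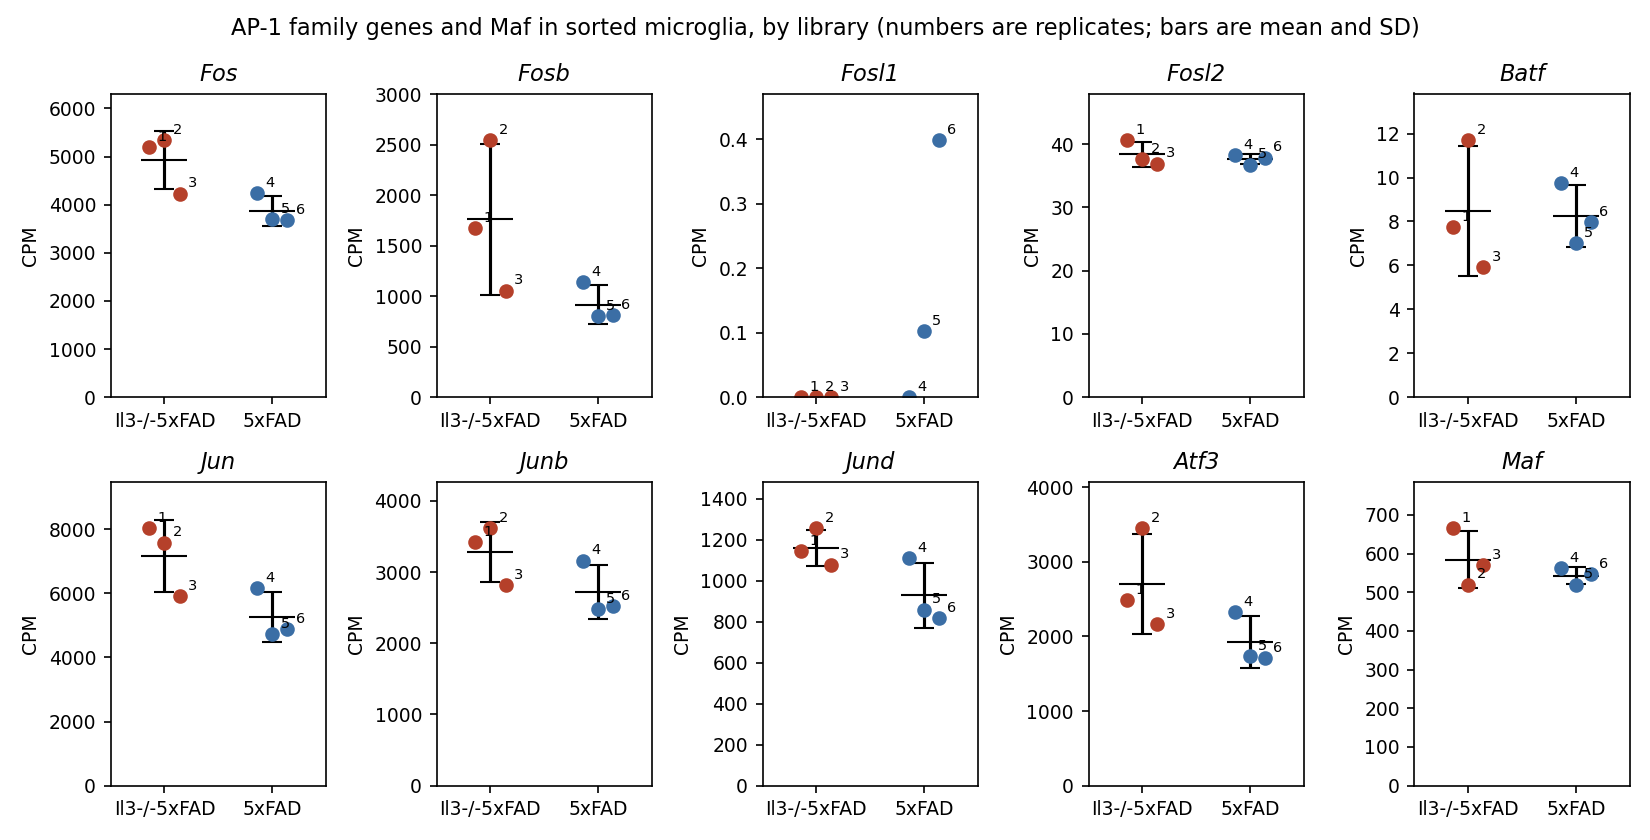
Level in CPM of each member (1 panel per gene, axis from 0) in the 3 Il3-/-5xFAD and 3 5xFAD libraries; points are libraries numbered by replicate, and black bars are mean and SD (none for Fosl1). In Jun, Junb, Jund, Fos, Fosb and Atf3, 5xFAD replicate 4 lies above Il3-/-5xFAD replicate 3, so the groups overlap.

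**Figure D2:**
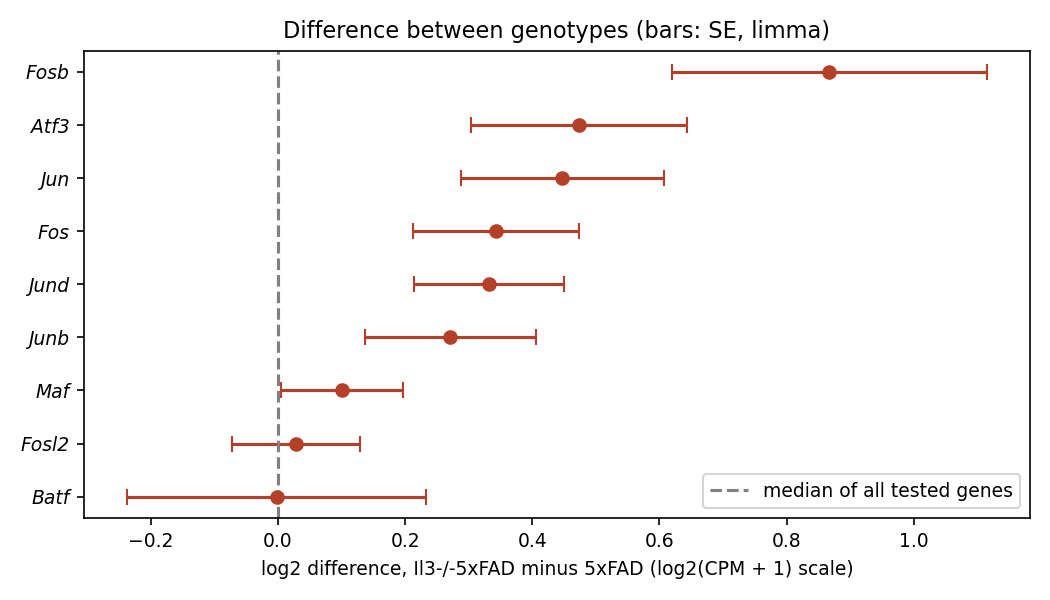
Log2 difference between Il3-/-5xFAD and 5xFAD for the 9 tested members, on the log2(CPM + 1) scale, with SE bars from limma; the dashed line is the median of all tested genes. Fosb is highest at 0.87 and Batf lies at -0.0023, and none passed the adjusted threshold.

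Per kb of the longest transcript, Fos and Jun were the most abundant members. Divided by the length of the longest annotated transcript, Fos was at 2337 ± 288 CPM per kb in Il3-/-5xFAD and 1837 ± 149.8 CPM per kb in 5xFAD (SD, n = 3 each), and Jun at 2249.8 ± 350.3 in Il3-/-5xFAD and 1647 ± 246 CPM per kb in 5xFAD. Fos exceeded Jun in 5 of the 6 libraries, with Il3-/-5xFAD replicate 1 the exception, so these neighbours were within their spread. Junb followed at 1814 ± 231 CPM per kb in Il3-/-5xFAD and 1505 ± 211 CPM per kb in 5xFAD. Then came Atf3 at 1361 ± 337 CPM per kb in Il3-/-5xFAD and 971 ± 175 CPM per kb in 5xFAD, Jund at 695 ± 53.8 in Il3-/-5xFAD and 556 ± 95.0 in 5xFAD, and Fosb at 465 ± 198 in Il3-/-5xFAD and 242 ± 50.2 in 5xFAD.

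Well below them were Maf, at 92.0 ± 11.7 CPM per kb in Il3-/-5xFAD and 85.3 ± 3.39 CPM per kb in 5xFAD, Batf at 8.86 ± 3.11 in Il3-/-5xFAD and 8.64 ± 1.46 in 5xFAD, and Fosl2 at 5.88 ± 0.306 in Il3-/-5xFAD and 5.76 ± 0.120 in 5xFAD. From Jun down to Fosl1, each member exceeded the next in all 6 libraries. That order rests on the lengths used. With the median transcript length Fos exceeded Junb, and Junb exceeded Jun, in all 6 libraries, and Batf exceeded Fosl2 in only 2 of 6.

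**Figure D3:**
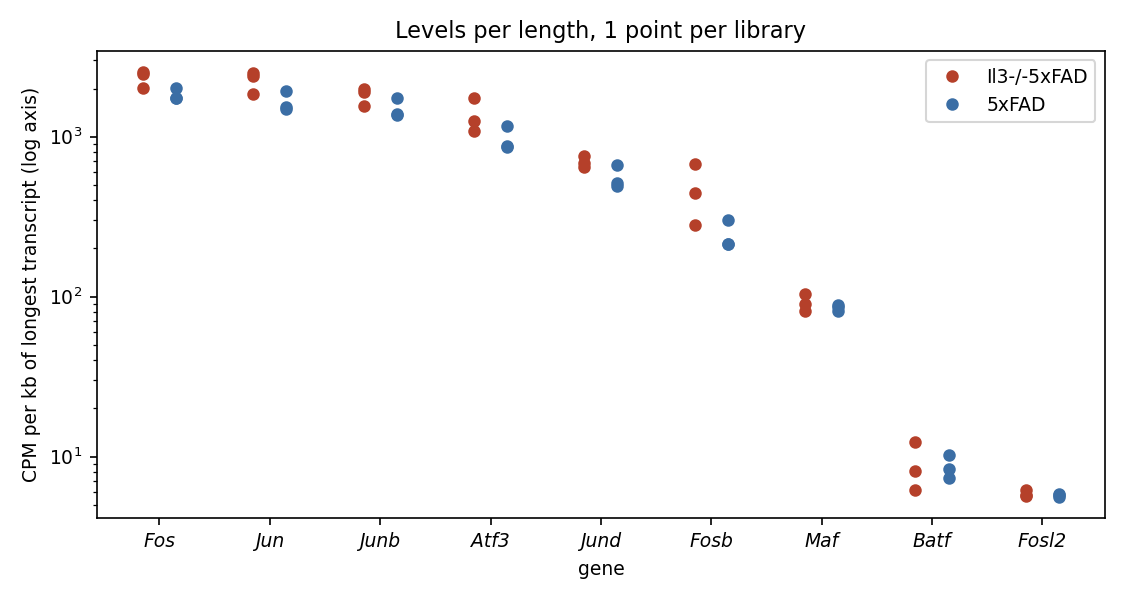
Level per length of 9 members in CPM per kb of the longest transcript (log axis), with Il3-/-5xFAD libraries left of 5xFAD libraries, 1 point per library. Fos to Fosb lie at or above 212 CPM per kb in every library, and Batf and Fosl2 reach at most 12.3; Fosl1, with reads in 2 libraries only, is not drawn.

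Tissue dissociation was kept in view with a list of 30 other early response genes. None of the 30 passed the test (limma, adjusted), 29 had positive differences, and their median log2 difference was 0.25. At an unadjusted p under 0.05, 11 were higher and none lower, where 6.69% of all tested genes were higher and 9.83% lower. Of these 30, 4 were without overlap and higher in Il3-/-5xFAD (Klf2, Klf6, Gadd45b and Mcl1, named after their values were seen), where 9.65% of all tested genes were. Rhob, a small GTPase gene, was at 4563 ± 447 CPM in Il3-/-5xFAD and 3601 ± 574 CPM in 5xFAD (SD, n = 3 each; limma adjusted p = 0.232). Zfp36, which encodes the mRNA-destabilising protein tristetraprolin, was at 3606 ± 639 CPM in Il3-/-5xFAD and 3002 ± 277 CPM in 5xFAD (limma adjusted p = 0.409).

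The summed level of the list was 27194, 32026 and 22025 CPM in Il3-/-5xFAD replicates 1, 2 and 3, against 24114, 19967 and 19899 CPM in 5xFAD replicates 4, 5 and 6. By these sums its order of libraries was that of Fos, Jund and Atf3: Il3-/-5xFAD replicates 2 and 1 were highest, then 5xFAD replicate 4, then Il3-/-5xFAD replicate 3, then 5xFAD replicates 5 and 6. In the list's mean centred log2 level, 5xFAD replicates 5 and 6 were almost equal, at -0.2154 and -0.2141, in the order of Fosb and Junb. Without Il3-/-5xFAD replicate 2 the list's median was 0.09, and without Il3-/-5xFAD replicate 3 it was 0.43. The part of dissociation in the members' levels was not tested, since no label records how each pool was handled.

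Set against the mean of these 30 genes in the same library, Fos, Junb and Jund differed little between the genotypes, while Fosb kept most of its difference. The list's mean log2 level differed by 0.27 between the genotypes, and the difference left after subtracting it was 0.07 for Fos, -0.0021 for Junb, 0.06 for Jund, 0.17 for Jun and 0.20 for Atf3, with overlap between the groups in each. Fosb kept 0.59: relative to the list it was at 0.30, 0.61 and -0.01 in Il3-/-5xFAD replicates 1, 2 and 3 and at -0.13, -0.39 and -0.38 in 5xFAD replicates 4, 5 and 6 (log2, centred over 6 libraries). On this scale every Il3-/-5xFAD library of Fosb stood above every 5xFAD library, as in 0.471% of all tested genes. That share is low by construction, since subtracting the list moved every gene's difference down by 0.27. Before the subtraction, 9.65% of tested genes were higher without overlap and 11.5% lower, and Fosb overlapped. Fosl2, Maf and Batf came out at -0.24, -0.17 and -0.28, farther from 0 than before the subtraction. Batf values did not overlap, with Il3-/-5xFAD lower, as in 13.7% of all tested genes, but the nearest libraries were almost equal, at 0.0185 in Il3-/-5xFAD replicate 2 and 0.0193 in 5xFAD replicate 5. The subtraction takes each gene to move as far as the list between libraries, and Fosb moved farther within 1 genotype. Fosb was at 1.06 and -0.21 in Il3-/-5xFAD replicates 2 and 3, where the list was at 0.45 and -0.20 (centred log2). A gene that moves farther than the list keeps a difference after this subtraction, and no test was made of these values.

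**Figure D4:**
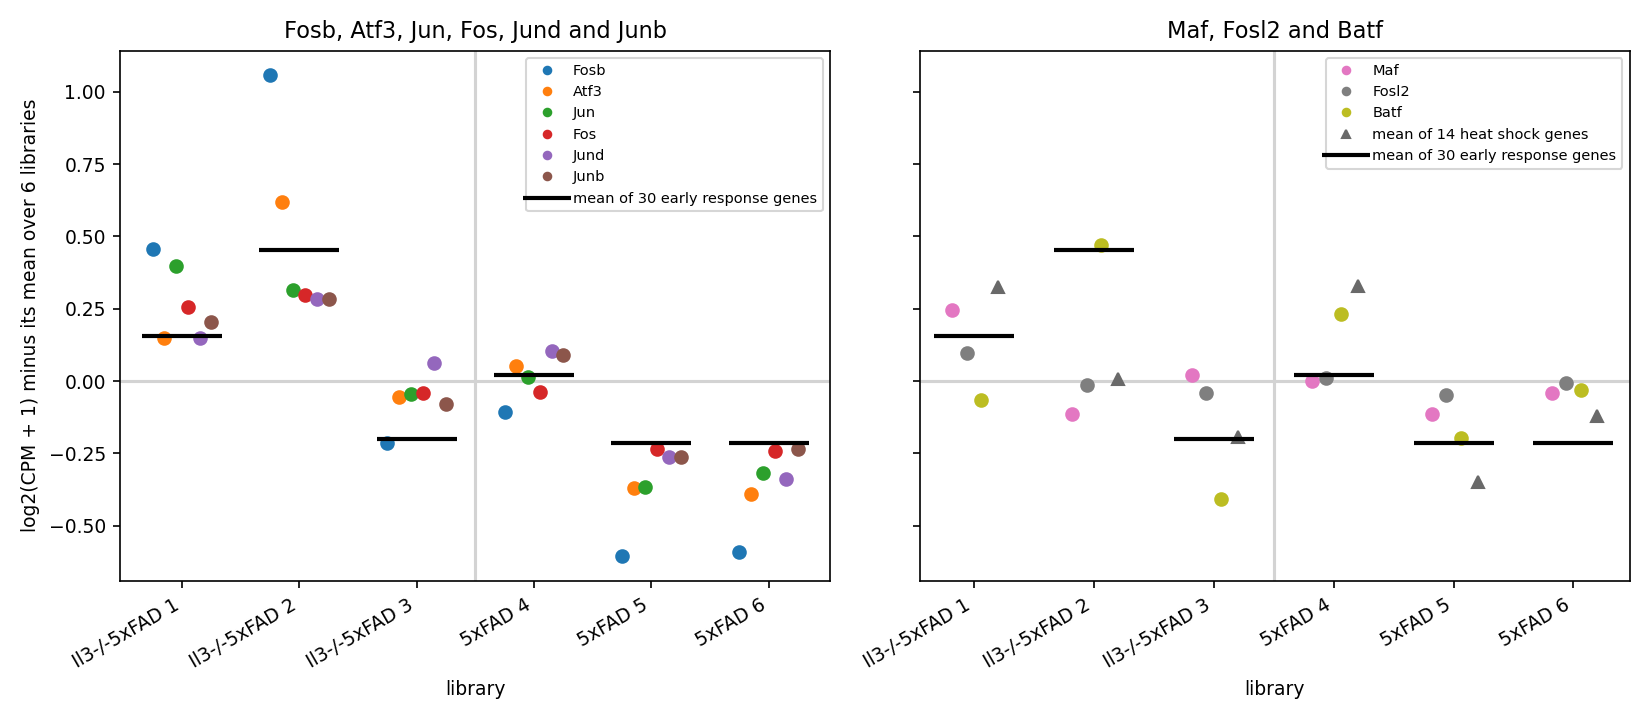
Log2(CPM + 1) of each member minus its mean over the 6 libraries, with the mean of the 30 early response genes (black bars) and, at right, of 14 heat shock genes (triangles). Fosb, Atf3, Jun, Fos, Jund and Junb are high in Il3-/-5xFAD replicates 1 and 2 and low in 5xFAD replicates 5 and 6, as are the early response genes, and Maf and Fosl2 are not.

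Heat shock genes, which respond to warmth and unfolded protein, were measured as a separate sign of handling. Of 14 tested genes none passed and 8 had positive differences, with a median of 0.09. The list was highest in Il3-/-5xFAD replicate 1 (8348 CPM) and 5xFAD replicate 4 (8610.2 CPM) and did not separate the groups, with 6413 to 8348 CPM in Il3-/-5xFAD and 5526 to 8610.2 CPM in 5xFAD. The chaperone genes Hspa5 and Hspa8 were at 2315 ± 94.9 and 1723 ± 311 CPM in Il3-/-5xFAD and at 2004 ± 404 and 1618 ± 454 CPM in 5xFAD (SD, n = 3 each; limma adjusted p = 0.430 and 0.817). The list's median ran from -0.09 to 0.27 with 1 library left out, and was negative without Il3-/-5xFAD replicate 1 or 5xFAD replicate 5.

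Inhibitors of the MAP kinases, which AP-1 and its upstream kinases induce as feedback, had differences of the same sign as most members. None of the 12 tested genes for MAP kinase phosphatases and Sprouty-type proteins passed (limma, adjusted), 11 had positive differences, and the median was 0.25. At an unadjusted p under 0.05, 4 were higher, as were 6.69% of all tested genes. Without overlap, 3 were higher in Il3-/-5xFAD, as were 9.65% of all tested genes. Dusp1, which encodes the phosphatase of p38 and JNK, was at 1576 ± 206 CPM in Il3-/-5xFAD and 1155 ± 139.6 CPM in 5xFAD (SD, n = 3 each), without overlap (log2 difference 0.45 ± 0.12, limma adjusted p = 0.0867). Dusp6, the phosphatase gene for ERK, was at 1022 ± 103 CPM in Il3-/-5xFAD and 876 ± 91.2 CPM in 5xFAD (limma adjusted p = 0.312). Dusp1 passed without Il3-/-5xFAD replicate 3, by DESeq2 and by edgeR with no filter, and in none of the other settings tried.

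For the genes upstream of AP-1 and the other members of its protein class the medians were near 0. Of 31 tested kinases and factors upstream of AP-1 none passed, 22 had positive differences, 3 were higher and 2 lower at an unadjusted p under 0.05, and the median was 0.02. Their most abundant members were Mef2a, a factor at early response promoters, with a log2 difference of 0.19 ± 0.08, and the kinase gene Rps6ka1 with 0.10 ± 0.09. Of 33 other basic leucine zipper genes none passed, 20 had positive differences, 3 were higher and 1 lower at an unadjusted p under 0.05, and the median was 0.03. By that rule 6.69% of all tested genes were higher and 9.83% lower. Cebpa, which encodes a myeloid lineage factor, was at 782 ± 5.70 CPM in Il3-/-5xFAD and 748 ± 43.5 CPM in 5xFAD (SD, n = 3 each; limma adjusted p = 0.735).

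Genes often described as AP-1 targets were mostly lower in Il3-/-5xFAD. Of 16 tested, 3 fell and none rose in Il3-/-5xFAD, by a test that called 0.882% of all genes. Differences were negative for 12, while 49.9% of all tested genes had positive ones, and the list's median was -0.35. At an unadjusted p under 0.05 (limma), 6 were lower and 1 higher, while 9.83% of all tested genes were lower and 6.69% higher. The genes that fell were Spp1, which encodes osteopontin, by 2.32 on the log2 scale, and the matrix metalloproteinase genes Mmp9 and Mmp12, which fell by 1.95 and 1.49 (limma adjusted p = 0.000776, 0.0469 and 0.0408). The calls of Mmp9 and Mmp12 were lost by limma without 5xFAD replicate 5 or 6, with no filter and with a mean of at least 5 CPM. They were also lost after median-ratio or quantile scaling and without the variance trend. The filtered edgeR fit, on all 6 libraries, lost them too. DESeq2, a pseudocount of 0.25 CPM and robust estimation also lost Mmp9, and Mmp12 was also lost without Il3-/-5xFAD replicate 2; that of Spp1 was lost with no filter, without the variance trend and with robust estimation. Mmp9 is also on the neutrophil list below. With 1 library left out, the list's median ran from -0.53 (without 5xFAD replicate 4) to -0.26.

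Markers of neutrophils, monocytes, T cells and choroid plexus were lower in Il3-/-5xFAD, where most AP-1 members had higher means. Beside the counts that follow, the test called 0.882% of all genes in either direction. Of the neutrophil list, whose cells also express Fos and Junb, 5 of 14 tested genes fell and none rose, with a summed level of 912 to 1474 CPM in Il3-/-5xFAD and 1925 to 3997 CPM in 5xFAD. It was lowest in Il3-/-5xFAD replicate 2, where Fos, Fosb and Atf3 were highest. Of these sums, Csf3r alone held 674 ± 37.4 CPM in Il3-/-5xFAD and 661 ± 34.6 CPM in 5xFAD (SD, n = 3 each, limma adjusted p = 0.903). In Il3-/-5xFAD replicate 2 Csf3r made 698 of the 912 CPM. Of the monocyte list 3 of 11 fell (122 to 247 CPM in Il3-/-5xFAD against 258 to 472 CPM in 5xFAD), of the T cell list 4 of 14 (77.4 to 107.6 CPM in Il3-/-5xFAD against 136 to 254 CPM in 5xFAD) and of the choroid plexus list 2 of 6 (65.9 to 136 CPM in Il3-/-5xFAD against 188 to 532 CPM in 5xFAD).

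None passed of 11 genes of border-associated macrophages, 8 of endothelium, 5 of astrocytes, 5 of oligodendrocytes, 2 of B cells and 2 of neurons, and no marker was at 0 in all 6 libraries. By mean centred log2 level, the first 4 of these lists were lower in Il3-/-5xFAD without overlap, by -0.34, -0.41, -0.69 and -0.39. The B cell and neuron lists overlapped. In summed CPM the border-associated macrophage list was higher in Il3-/-5xFAD (1126 to 1311 in Il3-/-5xFAD, 954 to 1034 in 5xFAD). Stab1 alone held most of these sums, at 1048 ± 79.9 CPM in Il3-/-5xFAD and 813 ± 60.9 CPM in 5xFAD (SD, n = 3 each). Of the 11 genes of that list, 9 had negative differences. The microglial markers summed to 43418 to 47428 CPM in Il3-/-5xFAD and 41852 to 43942 CPM in 5xFAD, and none of the 12 passed. Of the 12, 11 had positive differences, and their mean centred log2 level was 0.13 higher in Il3-/-5xFAD, without overlap. In such bulk samples fewer cells of a type and less RNA per cell cannot be told apart, and the part of these cells in the members' levels was not tested.

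Differences between the genotypes also varied with transcript length. Tested genes with a known length were put in 5 bins of equal size. The median log2 difference was -0.13 in the bin of the shortest genes, which holds Junb, Jund, Atf3 and Batf, and 0.09 in that of the longest, which holds Fosl2 and Maf. It was -0.03 in the bin of Fos and 0.0055 in that of Jun and Fosb. Jun, Junb, Jund, Fos, Fosb and Atf3 had larger differences than the medians of their bins.

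The genes whose profile over the 6 libraries came nearest to a member were sought among 9807 tested genes whose mean over the libraries reached 5 CPM, by the root mean square difference of centred log2(CPM + 1) values. Nearest to Jun was Sgk1, which encodes a serum- and glucocorticoid-induced kinase, at 0.03, then Ap4e1, for an adaptor complex subunit, at 0.05, and the zinc finger gene Zfp292 at 0.06. Sgk1 was at 1170.2, 1138 and 905 CPM in Il3-/-5xFAD replicates 1, 2 and 3 and at 901, 715 and 699.8 CPM in 5xFAD replicates 4, 5 and 6. All 3 genes nearest to Fos lay at 0.04: Tubb2a, a tubulin gene, Srsf11, a splicing factor gene, and Rbm33, an RNA-binding protein gene.

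Nearest to Atf3 were Trim47, a tripartite motif gene, at 0.06, Spry1, a Sprouty inhibitor gene, at 0.07, and Errfi1, which encodes an inhibitor of the EGF receptor, at 0.09. For Maf the nearest were the oxysterol receptor gene Gpr183, the leukotriene receptor gene Cysltr1 and Atxn2, which encodes the RNA-binding protein ataxin-2, all at 0.03. None of these 12 genes passed the test between genotypes (limma adjusted p from 0.0831 to 0.786).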

How the data were processed

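STAR, HTSeq, edgeR and the build mm9 stand in the submitters' processing notes without versions or roles. The library kit was directional, per the labels' protocols; annotation and the strand setting of counting: not given in the sources used here. The deposited values were CPM, 1 column per library, and 100% were whole multiples of 1 read (tolerance 0.01 reads), so the authors' read counts were recovered. Groups and replicate numbers came from the sample titles. The 11900 genes that reached 1 CPM in 3 or more of the 6 libraries were tested with limma 3.58.1 (trend, two-sided) in R 4.3.3 on log2(CPM + 1), as Il3-/-5xFAD minus 5xFAD; p-values were adjusted by Benjamini-Hochberg and called at 0.05. The log2(CPM + 1) scale understates changes of low genes.

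Alternatives included edgeR 4.0.16 and DESeq2 1.42.0 on the recovered counts. Members and lists were chosen with earlier results of these data known. Named were all members, up to 4 called genes of each pathway list (else its 2 most abundant), and the 3 nearest profiles of Fos, Jun, Atf3 and Maf. One gene that this rule names is not reported here. Departing from the rule, cell type lists are given by counts, without named genes other than Csf3r and Stab1, which were named after their values were seen. Transcript lengths came from GENCODE M21 (GRCm38). The limma step was tested on simulated data.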

Additional observations from a re-analysis of the deposited data

How the results depend on the processing

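No paired analysis was possible because the groups share no replicate number. The count of genes called, 105, was 8 with no filter, 68 with a mean of at least 5 CPM, 65 after median-ratio rescaling, 10 without the variance trend, 63 by edgeR with TMM factors, 569 by DESeq2 and 813 by edgeR with no filter, and leaving out 1 library gave 15 (without 5xFAD replicate 6) to 605 (without Il3-/-5xFAD replicate 3). Members called numbered 0, against 2 by DESeq2, 5 by edgeR with no filter and 0 to 1 with 1 library left out. Members higher at an unadjusted p under 0.05 numbered 5, against 2 with no filter, 3 without the trend and 1 to 6 with 1 library left out. DESeq2 called Fos (0.35) and Jun (0.45), and edgeR with no filter called Fos (0.36), Fosb (0.95), Jun (0.46), Jund (0.33) and Atf3 (0.50). With 1 library left out, Fosb ran from 0.56 to 1.19, Fosl2 from -0.0127 to 0.0557 and Batf from -0.24 to 0.20. The Batf log2 difference, -0.0023, was 0.0057 with a pseudocount of 5 CPM, 0.00278 after median-ratio rescaling, 0.0992 after quantile normalization, 0.0487 by edgeR with TMM factors, 0.0461 by DESeq2 and 0.0487 by edgeR with no filter. Fos, Fosb, Jun, Junb, Jund, Atf3 and Maf kept a positive sign in all 17 settings. Among other named genes, the Itgam log2 difference became -0.0325 after quantile normalization, and with 1 library left out Atxn2 ran from -0.0206 to 0.124 and Hspa8 from -0.0642 to 0.324. The cause of these changes was not tested. Reads per member, apart from Fosl1 and Batf, numbered at least 1061 in every library.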

Other observations

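Within a library, the ratio of Junb to Jun in CPM was 0.426, 0.477 and 0.476 in Il3-/-5xFAD replicates 1, 2 and 3, against 0.514, 0.525 and 0.517 in 5xFAD replicates 4, 5 and 6, so the groups did not overlap. Of 4 such ratios computed after the levels had been seen it was the only one without overlap, and its two-sided exact permutation p was 0.1 (adjusted p = 0.4 over the 4), the smallest that 3 libraries against 3 allow. The ratio of Fosb to Fos was 0.322, 0.476 and 0.249 in Il3-/-5xFAD and 0.268, 0.217 and 0.221 in 5xFAD (exact permutation p = 0.2, adjusted p = 0.4). Fos to Jun and Atf3 to Jun also overlapped (exact permutation p = 0.3 and p = 0.9).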
